A study of Arabidopsis thaliana with 6 samples.

Results

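The transcripts described here are those of 44 histone genes of Arabidopsis thaliana, out of 32678 genes listed. They are 13 H2A, 11 H2B, 9 H3, 8 H4 and 3 H1 loci, chosen by gene family. RNA was sequenced from whole seedlings kept for 5 days in white light. One group was Col-0, the wild-type accession, and the other was csu6-2, a mutant in COP1 SUPPRESSOR 6, a gene named for a mutant that suppresses cop1. The study's title concerns the repression of PIF4 and PIF5 by that gene. Each genotype had 3 libraries, and the labels give no other allele, treatment or age. As neither the lesion of csu6-2 nor its locus is named in the labels, the level of the mutated gene was not analysed here. Nothing in the labels says whether the libraries of a genotype came from separate growths, so the p-values measure only the spread between these samples, which may be technical.

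Histones H2A, H2B, H3 and H4 form the nucleosome core around which DNA is wound, and the linker histone H1 sits where DNA enters and leaves it. Canonical H2A, H2B, H3.1 and H4 are made mainly in S phase, when new DNA has to be packed, so their transcripts are most abundant in dividing tissue such as meristems and young leaves. Variants are made also outside S phase: H3.3 replaces H3.1 in transcribed genes, H2A.Z lies at gene starts and in responsive gene bodies, H2A.X is phosphorylated at DNA breaks, H2A.W marks heterochromatin and CENH3 builds the centromere. In plants the replication-linked histone messages carry poly(A) tails, so the oligo(dT) capture used here retains them. The numbered HTR names, H1.1, H1.2 and several HTB names are those usual in the field, because the reference annotation lists those loci without them. The annotated spans of 10 members overlap another gene, for 9 of them only on the opposite strand (HTA3, HTA4, HTA9, HTA12, HTA13, HTB9, HTB10, H1.1 and H1.2), and as no source used here states the strand setting of the counting, their levels are uncertain to that extent.

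The labelled tissue, whole seedlings, was checked against marker genes. The summed level of 3 markers of green tissue (RBCS1A, LHCB1.3 and RCA) was 21400 to 26570 RPKM in Col-0 and 27130 to 28390 in csu6-2. RPKM stands for reads per kilobase per M reads mapped. The sum was higher in all mutant libraries than in any wild-type library. Singly, none of the 3 passed in the limma fit given below (adjusted p = 0.145, 0.201 and 0.469), and LHCB1.3 and RCA overlapped between genotypes. Root markers (PYK10, RHD6 and COBL9) summed to 1211 to 1296 RPKM in Col-0 and 968 to 1104 in csu6-2. Nearly all of it was PYK10, which was lower in that fit (adjusted p = 0.0361). RHD6 did not pass (adjusted p = 0.714). COBL9 was too low to test, at a mean of 0.963 RPKM in Col-0 and 1.04 in csu6-2. Shoot meristem markers (STM, WUS and CLV3) summed to 1.66 to 1.83 RPKM in Col-0 and 0.87 to 1.92 in csu6-2, with WUS listed at 0 in 5 of 6 libraries, and root meristem markers (PLT1, PLT2 and WOX5) to 6.12 to 6.98 and 5.24 to 7.23, so both sums overlapped between genotypes. Most of the root meristem sum was WOX5, which overlapped between genotypes, as did PLT1. PLT2, too low to test, was at 0.68, 0.74 and 0.85 RPKM in Col-0 and 0.56, 0.32 and 0.60 RPKM in csu6-2, without overlap. Guard cell markers (KAT1, MYB60 and FAMA) summed to 22.9 to 26.7 RPKM in Col-0 and 20.9 to 24.8 in csu6-2, and seed markers (CRA1, OLEO1 and CRU3) to 0.89 to 1.51 and 0.50 to 2.87. Of 3 pollen markers, VGD1 and MGH3 were listed at 0 in all 6 libraries and TUA1 lay between 16.7 and 19.8 RPKM. The part of tissue makeup in the histone values below was not tested, and in RNA of whole seedlings fewer cells of a type and less RNA per cell cannot be told apart. Depth is not stated; the steps of the lowest values put it at about 26.9 to 42.9 M reads per library if the most common low value is 2 reads, with 47.9 to 53.5% of low values within 0.1 read of a whole number. Col-0 and csu6-2 libraries lay apart on the leading principal component (50.7% of variance).

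Histone transcripts were lower in csu6-2. Of the 42 histone genes with at least 1 RPKM in 3 or more libraries, 22 were lower and 0 higher at an adjusted p under 0.05, in limma on log2(RPKM + 1) with Benjamini-Hochberg adjustment over all 18885 genes tested. Among all tested genes 9.38% were lower and 3.55% higher. At an unadjusted p under 0.05, 31 members were lower and 0 higher. All 3 mutant libraries lay below all 3 wild-type libraries for 30 of the 42, where the same held for 23% of all tested genes; 0 members and 9.04% of all tested genes had all 3 mutant libraries above. The falls were modest: the median log2 change of the 42 was -0.28, against -0.07 for all tested genes, and the range was -0.63 to 0.05. Summed over the 44 loci, histone transcripts came to 6956, 7213 and 6562 RPKM in Col-0 and 5755, 5562 and 5492 RPKM in csu6-2, 18.9% lower on average. They took 0.837 ± 0.0437% of the summed RPKM of a Col-0 library and 0.678 ± 0.0254% of that of a csu6-2 library (SD, n = 3 each).

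How many of the falls were called depended on scaling and on single libraries. With the libraries rescaled by median-of-ratios factors, which set the typical gene to no change (the shift of the median was 0.07), 13 of the 22 remained lower and 0 members were higher, while 5.89% of all genes were lower and 5.64% higher. Without Col-0 replicate 2 there were 10 falls, without csu6-2 replicate 2 there were 13, and in limma without its trend and robust options 14. With a block for replicate number there were 28, the same 22 and HTA1, HTA3, HTA5, HTR8, HTR13 and HIS4. The labels do not say that these numbers pair the samples. In what follows, a wild-type or mutant library left out is named by its replicate number. The misses listed gene by gene are those under rescaling or with a library left out. HTA6, HTA7, HTB9, HTR2, AT1G07660 and AT3G53730 also missed the threshold without a filter on low values and in limma without its options. HTB4 and HTR1 missed it in the latter fit. A group of 10 passed with any of the 6 libraries left out and also under the rescaling: HTA11, HTA13, HTB1, HTB2, HTB5, HTB6, HTR9 and the H4 genes AT3G45930, AT3G46320 and AT5G59970.

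**Figure D1:**
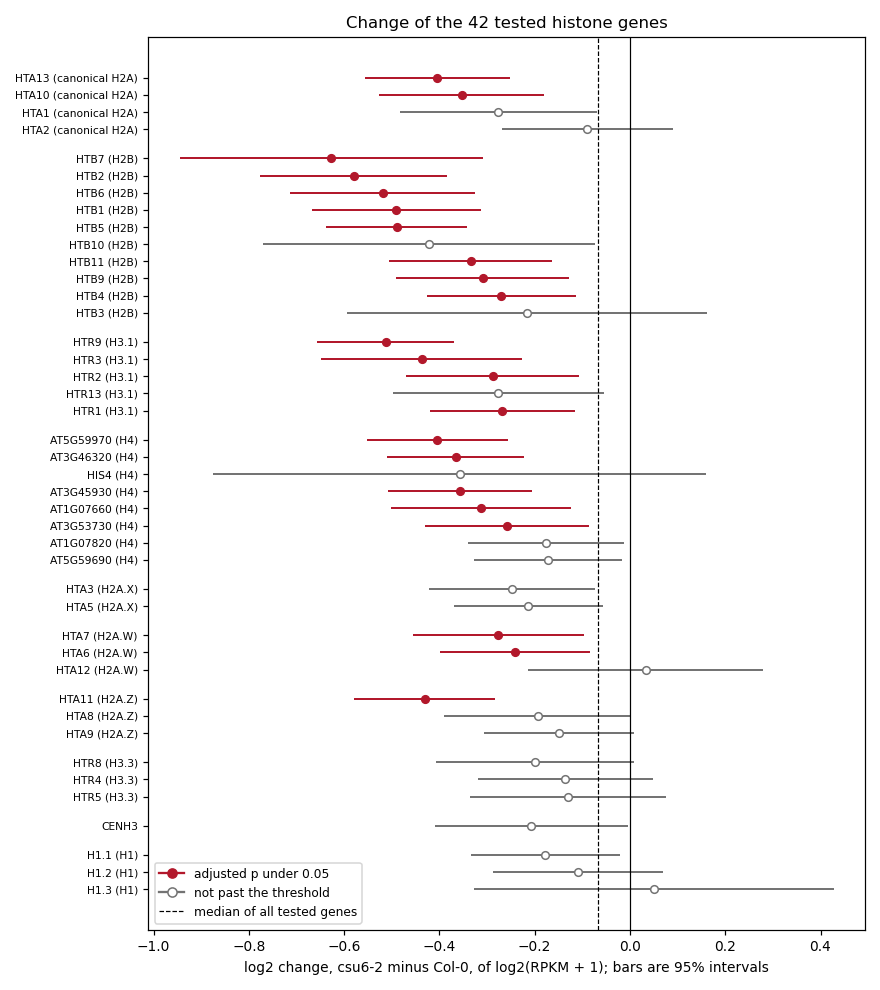
Log2 change (csu6-2 minus Col-0, on log2(RPKM + 1)) of the 42 tested histone genes, grouped by class, with pointwise 95% intervals from limma. The 22 filled red points passed an adjusted p of 0.05, the open grey points did not, and the dashed line is the median of all 18885 tested genes at -0.07; 40 of the 42 points lie below 0.

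The falls lay mostly in the classes made in S phase. Of 27 tested genes for canonical H2A, H2B, H3.1 and H4, 19 were lower, with a median log2 change of -0.35. Of 15 tested genes for H2A.X, H2A.W, H2A.Z, H3.3, CENH3 and H1, 3 were lower, with a median of -0.19. Whether the classes differ from each other was not tested. In sums over a class, the mean was lower in csu6-2 by 23.7% for H2B, 21.7% for H3.1, 19.4% for canonical H2A, 18.1% for H2A.Z, 18.0% for H4, 15.9% for H2A.W, 14.9% for CENH3, 14.3% for H2A.X, 10.5% for H3.3 and 8.68% for H1. For the first 8 of these the mutant libraries all lay below the wild-type libraries, and for H3.3 and H1 the groups overlapped.

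**Figure D2:**
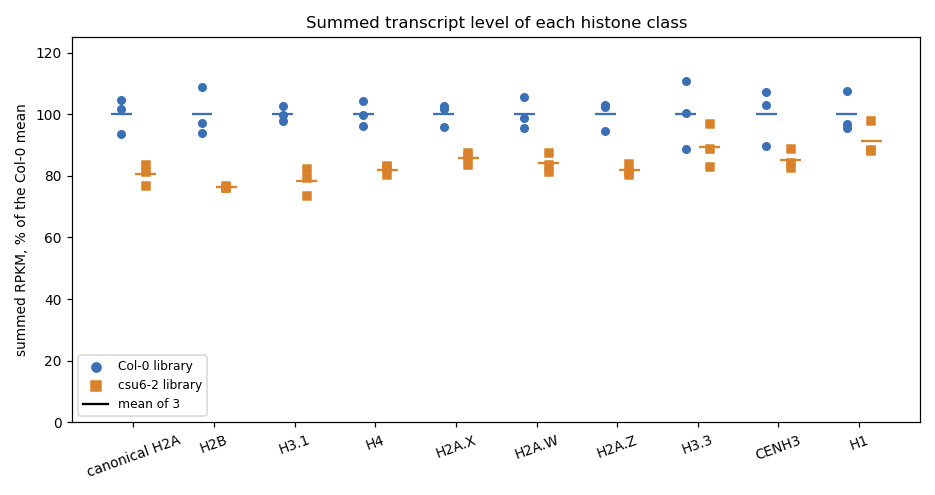
Summed RPKM of each histone class in each library, as a percentage of the Col-0 mean of that class (axis from 0). Circles are Col-0 and squares csu6-2 libraries, and short lines are means of 3; the sum for H2B was 23.7% lower in csu6-2 and that for H1 8.68% lower.

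The stretch from 250 bases before to 50 bases after the annotated gene start was read from the TAIR10.1 genome. The RefSeq annotation was used, to which all 44 loci matched by locus tag. Searched on both strands were the histone octamer CGCGGATC and the hexamer ACGTCA, motifs known from plant histone promoters, and AACGG, the core of the element bound by MYB3R factors in genes of mitosis. No match of one motif overlapped a match of another. The octamer was found in 10 of the 44 windows and in 0.146% of 27443 protein-coding windows. Those 10 were HTA6, HTA10, HTA13, HTR1, HTR2, HTR5, HTR9, AT1G07660, AT5G59690 and H1.1, of which 7 were among the 22 called falls and 3 among the 20 tested genes not called. The hexamer was in 13 members, 9 of them H2B genes out of 11, and in 9.19% of all windows, and AACGG in 27 members and in 24.7% of all windows. Among the 22 called falls 17 held AACGG, and among the 20 not called 8 did. These matches describe the sequence only, and a window without a match says nothing of the factor. Shown here, 5′ to 3′ along the gene's strand with octamer and hexamer matches in capitals, are the H3.1 gene with the lowest adjusted p, a canonical H2A and an H2B gene among the falls that passed in every fit with a library left out, the one H2A.Z gene that fell, and an H3.3 gene that did not pass.
HTR9 (chr5:3270908-3271207, minus strand): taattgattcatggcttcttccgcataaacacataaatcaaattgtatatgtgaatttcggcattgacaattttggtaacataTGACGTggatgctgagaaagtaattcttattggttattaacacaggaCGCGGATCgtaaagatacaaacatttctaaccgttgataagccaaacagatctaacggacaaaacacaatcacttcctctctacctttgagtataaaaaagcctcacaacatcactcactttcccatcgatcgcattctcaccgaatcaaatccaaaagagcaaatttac
HTA13 (chr3:7229140-7229439, plus strand): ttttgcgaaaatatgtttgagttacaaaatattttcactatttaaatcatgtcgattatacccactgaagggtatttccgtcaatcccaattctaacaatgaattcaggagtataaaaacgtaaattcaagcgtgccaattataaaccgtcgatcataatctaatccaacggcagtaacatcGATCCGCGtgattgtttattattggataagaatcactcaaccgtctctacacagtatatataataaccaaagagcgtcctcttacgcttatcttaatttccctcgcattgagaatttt
HTB5 (chr2:15736477-15736776, plus strand): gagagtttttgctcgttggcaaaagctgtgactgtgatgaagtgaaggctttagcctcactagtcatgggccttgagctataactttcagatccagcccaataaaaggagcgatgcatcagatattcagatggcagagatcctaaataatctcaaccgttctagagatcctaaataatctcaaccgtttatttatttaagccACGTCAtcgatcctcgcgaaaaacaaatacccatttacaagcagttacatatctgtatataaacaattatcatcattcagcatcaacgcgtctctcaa
HTA11 (chr3:20195890-20196189, plus strand): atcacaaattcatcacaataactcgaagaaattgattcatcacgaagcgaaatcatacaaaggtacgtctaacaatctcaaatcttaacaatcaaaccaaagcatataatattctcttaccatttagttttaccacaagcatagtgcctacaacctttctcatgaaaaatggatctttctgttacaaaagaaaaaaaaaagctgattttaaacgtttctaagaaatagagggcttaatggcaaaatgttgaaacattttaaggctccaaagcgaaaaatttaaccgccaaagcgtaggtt
HTR5 (chr4:18558896-18559195, minus strand): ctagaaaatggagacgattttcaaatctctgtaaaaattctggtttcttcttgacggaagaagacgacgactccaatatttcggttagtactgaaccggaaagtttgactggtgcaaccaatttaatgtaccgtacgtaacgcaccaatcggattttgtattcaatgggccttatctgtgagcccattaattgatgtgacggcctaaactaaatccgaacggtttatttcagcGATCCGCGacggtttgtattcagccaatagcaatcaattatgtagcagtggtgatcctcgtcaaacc
Counting back from the gene start, the octamer of HTR9 began at position -120 and its hexamer at -167. The octamer began at -68 in HTA13 and at -17 in HTR5, and the hexamer of HTB5 at -48. The HTA11 window held neither.

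Of the H2B genes, 8 of 10 tested were lower and 0 higher, and they included the most abundant histone transcripts. HTB5 (AT2G37470) stood at 157, 153 and 149 RPKM in Col-0 and 109, 112 and 104 RPKM in csu6-2, 28.9% lower (log2 change -0.49, SE 0.07, adjusted p = 0.00058). HTB2 (AT5G22880), one of the 3 most abundant histone genes, read 472, 583 and 475 RPKM in Col-0 and 342, 321 and 356 RPKM in csu6-2 (log2 change -0.58, SE 0.09, adjusted p = 0.00131). HTB6 (AT3G53650) gave 57.0, 51.5 and 48.2 RPKM in Col-0 and 40.3, 33.5 and 34.6 RPKM in csu6-2 (log2 change -0.52, SE 0.09, adjusted p = 0.00244). In each of these 3 genes every mutant library was below every wild-type library, and HTB2 was highest in Col-0 replicate 2. HTB1 (AT1G07790) measured 98.2, 106 and 90.7 RPKM in Col-0 and 73.5, 63.9 and 71.6 RPKM in csu6-2 (log2 change -0.49, SE 0.08, adjusted p = 0.002). HTB7 (AT3G09480), a gene of low level, had 10.2, 13.5 and 14.1 RPKM in Col-0 and 6.85, 6.99 and 9.66 RPKM in csu6-2 and the lowest point estimate among the members (log2 change -0.63, SE 0.14, adjusted p = 0.0165). The groups were again apart in both, though the gap was narrow for HTB7, between Col-0 replicate 1 and csu6-2 replicate 3. The 3 remaining abundant genes fell by less. HTB4 (AT5G59910), the most abundant histone gene in Col-0, was at 497, 535 and 505 RPKM in Col-0 and 415, 418 and 442 RPKM in csu6-2 (log2 change -0.27, SE 0.07, adjusted p = 0.0251). HTB11 (AT3G46030) was at 432, 478 and 403 RPKM in Col-0 and 345, 354 and 339 RPKM in csu6-2 (log2 change -0.33, SE 0.08, adjusted p = 0.0134). For HTB9 (AT3G45980) the values were 360.4, 392 and 332 RPKM in Col-0 and 307, 299 and 268 RPKM in csu6-2 (log2 change -0.31, SE 0.08, adjusted p = 0.0279). None of these 3 overlapped between genotypes, and all of them were highest in Col-0 replicate 2. HTB7 missed the threshold with wild-type library 2, wild-type library 3, mutant library 1 or mutant library 2 left out (adjusted p = 0.0731, 0.0518, 0.0558 and 0.077). HTB4 missed the threshold under rescaling (adjusted p = 0.138) and with wild-type library 2, wild-type library 3, mutant library 1 or mutant library 2 left out (adjusted p = 0.107, 0.0537, 0.06 and 0.0888). For HTB9 this was so under rescaling (adjusted p = 0.0998) and with wild-type library 1, wild-type library 2, mutant library 2 or mutant library 3 left out (adjusted p = 0.0539, 0.124, 0.0724 and 0.0984). For HTB11 this was so under rescaling (adjusted p = 0.0634) and with wild-type library 2 left out (adjusted p = 0.0672).

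The other 3 H2B genes gave no call. HTB3 (AT2G28720), adjacent on chromosome 2 to the H4 gene HIS4 save for 1 coding gene between them, was at 78.1, 114 and 77.3 RPKM in Col-0 and 73.3, 86.4 and 69.1 RPKM in csu6-2 (log2 change -0.22, 95% interval -0.59 to 0.16, adjusted p = 0.439), with replicate 2 the highest library in both genotypes. HTB10 (AT5G02570) was at 3.36, 3.46 and 3.26 RPKM in Col-0 and 2.54, 2.96 and 1.46 RPKM in csu6-2 (log2 change -0.42, 95% interval -0.77 to -0.08, adjusted p = 0.104); its whole span of 522 bases lies within the H2A.W gene HTA12 on the other strand, and without the strand setting of the counting its reads cannot be told from those of HTA12. HTB8 (AT1G08170), an H2B known from seed and sperm, was listed at 0 in all 6 libraries.

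Among the 4 canonical H2A genes 2 were lower and 0 higher. HTA13 (AT3G20670) read 143, 140.5 and 131 RPKM in Col-0 and 105, 99.9 and 107 RPKM in csu6-2, 24.6% lower (log2 change -0.40, SE 0.07, adjusted p = 0.00251). HTA10 (AT1G51060), the most abundant of the 4, read 252, 279 and 238 RPKM in Col-0 and 205, 208 and 187 RPKM in csu6-2 (log2 change -0.35, SE 0.08, adjusted p = 0.0112). Both were lower in each mutant library than in any wild-type library. HTA10 and HTA13 share 4.81% and 6.18% of their 50-base windows and 0% of their 100-base windows, so some reads could be split between them. HTA10 passed the threshold narrowly under rescaling (adjusted p = 0.0488) and missed the threshold with wild-type library 2 left out (adjusted p = 0.0569). HTA1 (AT5G54640), whose disruption makes roots resistant to Agrobacterium transformation, and HTA2 (AT4G27230) did not pass, with log2 changes of -0.28 and -0.09 (adjusted p = 0.0733 and 0.522), and both overlapped between genotypes. HTA1 passed without Col-0 replicate 3 (adjusted p = 0.0325) or csu6-2 replicate 1 (adjusted p = 0.0441).

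Heterochromatic H2A.W showed 2 falls among 3 genes, neither of which held when libraries were left out. HTA6 (AT5G59870) was at 204, 179.9 and 189.5 RPKM in Col-0 and 163, 165 and 156 RPKM in csu6-2 (log2 change -0.24, SE 0.07, adjusted p = 0.0434), and HTA7 (AT5G27670) at 157, 159.9 and 136 RPKM in Col-0 and 134, 119.8 and 119 RPKM in csu6-2 (log2 change -0.28, SE 0.08, adjusted p = 0.0433). The libraries of the genotypes did not overlap in either gene, with the closest values of HTA7 in Col-0 replicate 3 and csu6-2 replicate 1. HTA6 missed the threshold under rescaling (adjusted p = 0.211) and with wild-type library 1, wild-type library 2, wild-type library 3, mutant library 1, mutant library 2 or mutant library 3 left out (adjusted p = 0.147, 0.0529, 0.0864, 0.0737, 0.0907 and 0.129). HTA7 missed the threshold under rescaling (adjusted p = 0.114) and with wild-type library 1, wild-type library 2, mutant library 2 or mutant library 3 left out (adjusted p = 0.112, 0.159, 0.15 and 0.122). HTA12 (AT5G02560), the gene that overlaps HTB10, ran between 8.77 and 11.9 RPKM over the 6 libraries (log2 change 0.03, adjusted p = 0.885).

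Of the H2A.Z genes, which encode the variant deposited by the SWR1 complex, 1 of 3 tested was lower and 0 higher (1 and 0 at an unadjusted p under 0.05). HTA11 (AT3G54560) read 138, 130.5 and 126 RPKM in Col-0 and 98.2, 96.1 and 97.0 RPKM in csu6-2, 26.1% lower (log2 change -0.43, SE 0.07, adjusted p = 0.00142), with the mutant libraries close together and all below the wild type. HTA9 (AT1G52740) was at 118, 118 and 108 RPKM in Col-0 and 108, 104 and 98.2 RPKM in csu6-2 (log2 change -0.15, 95% interval -0.30 to 0.01, adjusted p = 0.201), where Col-0 replicate 3 lay just under csu6-2 replicate 1. HTA8 (AT2G38810) was at 22.6, 27.4 and 22.6 RPKM in Col-0 and 20.9, 19.9 and 22.3 RPKM in csu6-2 (log2 change -0.19, 95% interval -0.39 to 0.00, adjusted p = 0.181), with the groups apart but close. HTA4 (AT4G13570) was too low to test, at 1.09, 0.76 and 0.29 RPKM in Col-0 and 0.46, 0.58 and 0.20 RPKM in csu6-2. Within the H2A family as a whole, H2A.Z made up 18.8 ± 0.267% of summed transcript levels in the wild type and 18.6 ± 0.113% in the mutant, and canonical H2A 36.6 ± 0.903% and 35.7 ± 0.736% (SD, n = 3 each), so these shares overlapped between genotypes.

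H2A.X, the form phosphorylated at DNA breaks, came close to the threshold in both its genes without passing it. HTA5 (AT1G08880), the more abundant, was at 214, 232 and 239.7 RPKM in Col-0 and 193, 192 and 205 RPKM in csu6-2 (log2 change -0.21, 95% interval -0.37 to -0.06, adjusted p = 0.068). HTA3 (AT1G54690) was at 63.5, 62.6 and 57.4 RPKM in Col-0 and 56.4, 49.9 and 48.1 RPKM in csu6-2 (log2 change -0.25, 95% interval -0.42 to -0.08, adjusted p = 0.0582). In both genes every mutant library was below every wild-type library. HTA3 passed without csu6-2 replicate 1 (adjusted p = 0.0277) or with a minimum of 5 RPKM (adjusted p = 0.0491), while HTA5 passed in none of the 6 fits with a library omitted (adjusted p = 0.053 to 0.193). In limma with a block for replicate number both HTA3 and HTA5 passed (adjusted p = 0.0257 and 0.0316).

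**Figure D3:**
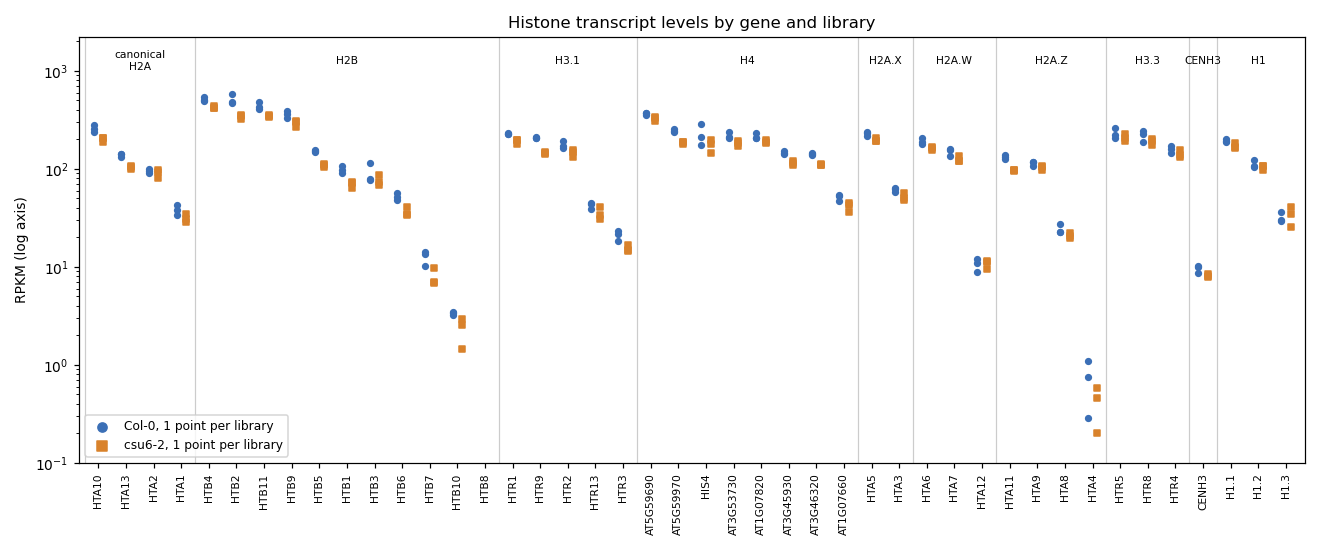
RPKM of the histone genes in each library on a log axis, by class, with Col-0 as circles and csu6-2 as squares. HTB4, HTB2 and HTB11 stand highest at 438 to 512 RPKM in the mean of Col-0, HTA4 lies near or below 1 RPKM, and HTB8, listed at 0, has no point.

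The H3 family holds the clearest pair of replication-linked and replacement forms. All 5 H3.1 genes encode one protein and all 3 H3.3 genes another. Over the 411 coding bases the H3.1 genes differed from each other at 43 to 81 bases with 0 codons for another residue, and from the H3.3 genes at 81 to 107 bases with 4 such codons. Counting the start codon as 0, these are codons 31, 41, 87 and 90. Coding bases 253 to 288, which hold codon 87 (bases 262 to 264) and codon 90 (bases 271 to 273), are shown to let the forms be seen side by side, with bases other than those of HTR9 in capitals.
HTR9 (H3.1): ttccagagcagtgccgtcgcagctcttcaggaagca
HTR1 (H3.1): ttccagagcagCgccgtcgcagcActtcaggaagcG
HTR5 (H3.3): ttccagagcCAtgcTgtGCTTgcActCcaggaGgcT
HTR8 (H3.3): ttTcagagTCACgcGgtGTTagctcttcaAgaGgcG
Of 36 bases, HTR1 differed from HTR9 at 3, HTR5 at 11 and HTR8 at 12.

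For H3.1, 4 of 5 genes were lower and 0 higher. HTR9 (AT5G10400) had the lowest adjusted p of all members, at 208, 206 and 213 RPKM in Col-0 and 149, 143 and 146 RPKM in csu6-2, 30.1% lower (log2 change -0.51, SE 0.07, adjusted p = 0.000338). HTR1 (AT5G65360) was at 229, 229 and 228 RPKM in Col-0 and 197, 178 and 195 RPKM in csu6-2 (log2 change -0.27, SE 0.07, adjusted p = 0.0231), and HTR2 (AT1G09200) at 172, 193 and 164 RPKM in Col-0 and 154, 132 and 147 RPKM in csu6-2 (log2 change -0.29, SE 0.08, adjusted p = 0.0379). In these genes the groups did not overlap, with the widest gap in HTR9. HTR3 (AT3G27360) was at 21.8, 23.4 and 18.5 RPKM in Col-0 and 16.7, 14.6 and 14.8 RPKM in csu6-2 (log2 change -0.44, SE 0.10, adjusted p = 0.0102), also without overlap. Its annotated span shares 328 bases on the same strand with SDH2-1 (AT3G27380), which did not pass (41.7 ± 1.15 and 44.2 ± 0.731 RPKM), so its own level is uncertain. HTR1 missed the threshold under rescaling (adjusted p = 0.0977) and with wild-type library 1, wild-type library 2, wild-type library 3 or mutant library 2 left out (adjusted p = 0.0542, 0.0697, 0.0548 and 0.0994). For HTR2 this was so under rescaling (adjusted p = 0.0989) and with wild-type library 1, wild-type library 2, mutant library 2 or mutant library 3 left out (adjusted p = 0.0564, 0.159, 0.161 and 0.0649). For HTR3 this was so with wild-type library 2 or mutant library 2 left out (adjusted p = 0.0547 and 0.0536). Another H3.1 gene, HTR13 (AT5G10390), which lies 577 bases from HTR9 on the same strand, was at 44.1, 44.9 and 39.2 RPKM in Col-0 and 41.1, 30.6 and 34.1 RPKM in csu6-2 with overlap between the groups (log2 change -0.28, 95% interval -0.50 to -0.06, adjusted p = 0.0949), and passed without csu6-2 replicate 1 (adjusted p = 0.0202).

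The H3.3 genes gave 0 calls in either direction, also at an unadjusted p under 0.05. HTR4 (AT4G40030) was at 169.8, 158 and 144 RPKM in Col-0 and 157, 139.9 and 133 RPKM in csu6-2 (log2 change -0.14, 95% interval -0.32 to 0.05, adjusted p = 0.319). HTR5 (AT4G40040), its neighbour at 42 bases, was at 260.4, 223 and 205 RPKM in Col-0 and 228, 205 and 193 RPKM in csu6-2 (log2 change -0.13, 95% interval -0.33 to 0.07, adjusted p = 0.406). HTR8 (AT5G10980) was at 242, 227 and 189 RPKM in Col-0 and 202, 193 and 175 RPKM in csu6-2 (log2 change -0.20, 95% interval -0.41 to 0.01, adjusted p = 0.191). In all 3 genes the groups overlapped, and replicate 1 was the highest and replicate 3 the lowest library of each genotype. Each csu6-2 library lay below the Col-0 library of the same number, though the labels do not say that the numbers pair the samples. The 3 intervals include the point estimates of the H3.1 genes HTR1 and HTR2, -0.27 and -0.29. HTR8 passed without Col-0 replicate 3 (adjusted p = 0.0432) or in limma with a block for replicate number (adjusted p = 0.0458). The summed level of H3.1 over that of H3.3 was 1.005, 1.145 and 1.231 in the Col-0 libraries and 0.950, 0.925 and 1.07 in the csu6-2 libraries, which overlap.

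CENH3 (AT1G01370), the centromeric H3, was at 10.3, 9.87 and 8.60 RPKM in Col-0 and 7.89, 8.06 and 8.49 RPKM in csu6-2 (log2 change -0.21, 95% interval -0.41 to -0.01, adjusted p = 0.168). The wild-type libraries were all above the mutant libraries but close to them, and the call did not change with any library left out. Of 5 further H3 genes that are not members, HTR11 (AT5G65350) was tested and did not pass (log2 change -0.36, adjusted p = 0.214); HTR6, HTR10, HTR14 and HTR15 were below the filter, with HTR10 and HTR15 listed at 0 throughout.

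All 8 H4 genes encode the same protein, with 78.8 to 98.1% identity between their coding sequences, and 5 of them were lower and 0 higher. AT5G59970 was at 241, 239.5 and 254 RPKM in Col-0 and 187, 179 and 188 RPKM in csu6-2, 24.5% lower (log2 change -0.40, SE 0.07, adjusted p = 0.00207). AT3G46320 was at 147, 138 and 143 RPKM in Col-0 and 111, 110.5 and 109.8 RPKM in csu6-2 (log2 change -0.37, SE 0.07, adjusted p = 0.00321), and AT3G45930 at 152, 145 and 142 RPKM in Col-0 and 114, 119 and 109 RPKM in csu6-2 (log2 change -0.36, SE 0.07, adjusted p = 0.00513). The mutant libraries of these 3 genes were tightly grouped and well below the wild type. The last 2 share 12.1% and 11.1% of their 100-base windows and 27.9% and 25.7% of their 50-base windows, so reads could be split between them and they are not independent evidence. AT5G59970 shares 6.56% of its 50-base windows, and 0% of its 100-base windows, with AT5G59690, so some of its reads could be split as well. AT1G07660 was at 52.8, 54.1 and 47.5 RPKM in Col-0 and 42.9, 44.4 and 36.7 RPKM in csu6-2 (log2 change -0.31, SE 0.09, adjusted p = 0.0316), and AT3G53730 at 237, 206 and 209.8 RPKM in Col-0 and 193, 171 and 181 RPKM in csu6-2 (log2 change -0.26, SE 0.08, adjusted p = 0.0468). Neither overlapped between genotypes. AT1G07660 shares 24.9% of its 50-base and 5.26% of its 100-base windows with AT1G07820, so reads could be split there too. AT1G07820 stood higher, at a mean of 215 RPKM in Col-0 and 190 in csu6-2. AT1G07660 missed the threshold under rescaling (adjusted p = 0.1) and with wild-type library 1, wild-type library 2 or mutant library 3 left out (adjusted p = 0.0737, 0.121 and 0.129). For AT3G53730 this was so under rescaling (adjusted p = 0.164) and with wild-type library 1, wild-type library 2, wild-type library 3, mutant library 2 or mutant library 3 left out (adjusted p = 0.159, 0.0644, 0.0648, 0.174 and 0.0958). The H4 genes without a call were AT5G59690, the most abundant at 364 ± 8.19 and 323 ± 16.5 RPKM (log2 change -0.17, adjusted p = 0.132), AT1G07820 (-0.18, adjusted p = 0.146) and HIS4 (AT2G28740). HIS4 varied most of the H4 genes, at 213, 287 and 175 RPKM in Col-0 and 181, 196 and 143 RPKM in csu6-2 (log2 change -0.36, 95% interval -0.87 to 0.16, adjusted p = 0.334), with replicate 2 the highest library of each genotype, as in HTB3.

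Linker histone genes gave 0 calls, with 1 lower at an unadjusted p under 0.05. H1.1 (AT1G06760) and H1.2 (AT2G30620), the main forms, were at 194 ± 8.19 and 112 ± 10.3 RPKM in Col-0 and 172 ± 9.31 and 104 ± 6.57 in csu6-2 (SD, n = 3 each). Neither passed (log2 change -0.18, 95% interval -0.33 to -0.02, adjusted p = 0.124 for H1.1 and log2 change -0.11, 95% interval -0.29 to 0.07, adjusted p = 0.424 for H1.2). Every mutant library of H1.1 was below every wild-type library, while H1.2 overlapped between genotypes. H1.3 (AT2G18050), a form induced by drought and low light, was at 36.5, 29.9 and 29.3 RPKM in Col-0 and 40.3, 25.6 and 34.4 RPKM in csu6-2 (log2 change 0.05, 95% interval -0.33 to 0.43, adjusted p = 0.878), with the groups overlapping fully.

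Other genes that serve chromatin assembly or the cell cycle were compared from lists. Of 25 histone chaperones and exchange factors, 2 were lower and 1 higher, with a median log2 change of -0.08; these shares lie near the 9.38% lower and 3.55% higher among all tested genes, so the counts set the list apart in neither direction. The 3 genes called are given as single genes. The nucleosome assembly gene NAP1;2 (AT2G19480), whose protein binds H2A and H2B, was at 170.0, 178 and 178 RPKM in Col-0 and 150.2, 141 and 144 RPKM in csu6-2 (log2 change -0.27, SE 0.07, adjusted p = 0.0178), and NAP1;1 (AT4G26110) at 80.1, 88.4 and 81.2 RPKM in Col-0 and 72.3, 70.9 and 69.8 RPKM in csu6-2 (log2 change -0.23, SE 0.07, adjusted p = 0.0496). UBN1 (AT1G21610), a partner of the H3.3 chaperone HIRA, was higher, at 10.2, 10.7 and 11.4 RPKM in Col-0 and 14.8, 12.4 and 13.5 RPKM in csu6-2 (log2 change 0.31, SE 0.09, adjusted p = 0.0398). All 3 separated the genotypes, and none held throughout. NAP1;2 missed the threshold under rescaling (adjusted p = 0.0854) and with wild-type library 2, wild-type library 3, mutant library 2 or mutant library 3 left out (adjusted p = 0.0661, 0.0544, 0.0731 and 0.0528). For NAP1;1 this was so under rescaling (adjusted p = 0.175) and with wild-type library 1, wild-type library 2, wild-type library 3, mutant library 1, mutant library 2 or mutant library 3 left out (adjusted p = 0.062, 0.194, 0.0804, 0.0702, 0.124 and 0.135). For UBN1 this was so with wild-type library 1, wild-type library 2, mutant library 1 or mutant library 3 left out (adjusted p = 0.114, 0.111, 0.108 and 0.0989). Without a filter on low values UBN1 and NAP1;1 missed it too (adjusted p = 0.0675 and 0.068). In limma without its options NAP1;2, NAP1;1 and UBN1 all did (adjusted p = 0.0516, 0.101 and 0.0613). The subunits FAS1, FAS2 and MSI1 of the chaperone CAF-1, which loads H3.1 behind the replication fork, had log2 changes of -0.19, 0.05 and -0.04 (adjusted p = 0.23, 0.806 and 0.788).

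Of 19 tested DNA replication genes 1 was lower and 0 higher, with a median log2 change of -0.05. Beside the 9.38% lower and 3.55% higher among all tested genes, these counts do not set the list apart. The gene called is given as a single gene. The fall was that of the S-phase cyclin CYCA3;1 (AT5G43080), at 9.34, 8.28 and 8.32 RPKM in Col-0 and 6.87, 6.67 and 6.30 RPKM in csu6-2 (log2 change -0.34, SE 0.09, adjusted p = 0.0285), whose groups did not overlap. CYCA3;1 missed the threshold under rescaling (adjusted p = 0.0579) and with wild-type library 1, wild-type library 2, mutant library 2 or mutant library 3 left out (adjusted p = 0.104, 0.0633, 0.0674 and 0.105). RNR1, a ribonucleotide reductase subunit, and CDC6, a licensing factor, came next without passing (log2 changes -0.25 and 0.29, adjusted p = 0.0529 and 0.0786). RNR1 passed as lower with mutant library 1 left out (adjusted p = 0.0491) or with a minimum of 5 RPKM (adjusted p = 0.0456). CDC6 passed as higher under rescaling (adjusted p = 0.029) or in limma without its options (adjusted p = 0.0434). PCNA1, PCNA2 and the 6 MCM helicase genes had log2 changes of -0.07 to 0.14. Among 5 E2F and retinoblastoma genes 0 were called, also at an unadjusted p under 0.05, and DEL1 had the lowest adjusted p (0.239, log2 change -0.21). A list of 5 is too short for this count to be set against the shares of all tested genes.

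Of 16 genes of mitosis 9 were lower and 0 higher, where 9.38% of all tested genes were lower and 3.55% higher. Their median log2 change was -0.31. As this list was chosen with earlier results of these data known, its count is not independent support for the histone falls. CDC20.1 (AT4G33270), an activator of the anaphase-promoting complex, was at 33.8, 34.9 and 31.4 RPKM in Col-0 and 25.7, 21.2 and 21.0 RPKM in csu6-2 (log2 change -0.54, SE 0.09, adjusted p = 0.00187). HIK (AT1G18370), a kinesin of the phragmoplast, was at 18.6, 18.4 and 16.8 RPKM in Col-0 and 13.8, 11.3 and 12.4 RPKM in csu6-2 (log2 change -0.49, SE 0.09, adjusted p = 0.00384), and MAP65-3 (AT5G51600), which bundles microtubules there, at 11.8, 12.2 and 11.2 RPKM in Col-0 and 8.77, 8.35 and 8.61 RPKM in csu6-2 (log2 change -0.41, SE 0.08, adjusted p = 0.00678). In these 3 genes the groups were apart, and each passed with any of the 6 libraries left out and with rescaling. The list count was 5 without Col-0 replicate 2, 5 without csu6-2 replicate 2 and 6 without Col-0 replicate 1, and 7 with rescaling. Whether histone and mitosis lists differ from the replication list was not tested.

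**Figure D4:**
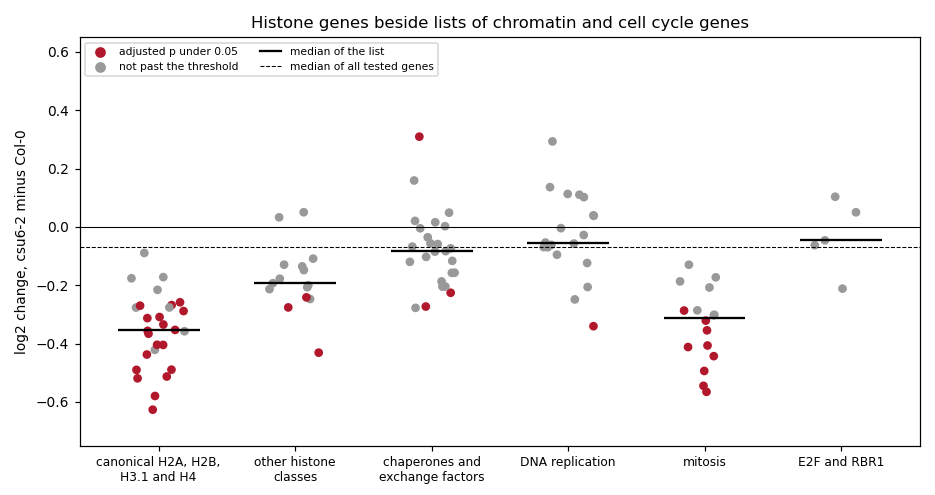
Log2 change (csu6-2 minus Col-0) of each tested gene in 2 groups of histone classes and 4 lists; red points passed an adjusted p of 0.05, bars are list medians and the dashed line is the median of all tested genes at -0.07. The medians are -0.35 for canonical H2A, H2B, H3.1 and H4, -0.31 for mitosis and -0.05 for DNA replication. The lists were chosen with earlier results of these data known.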

How the data were processed

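Poly(A) RNA of whole seedlings was sequenced from 3 Col-0 and 3 csu6-2 libraries. The authors deposited 1 RPKM value per gene and library, rounded to 2 decimals. Per the submitters' processing notes, HISAT2, edgeR 3.0.8 and TAIR10 were used, with no role given for each; no source used here states the strand setting or read counts. From the deposited values, log2(RPKM + 1) was compared with limma 3.58.1 in R 4.3.3 (empirical Bayes with trend and robust options, no covariate), over the 18885 genes with at least 1 RPKM in 3 or more libraries. P-values were adjusted by Benjamini-Hochberg over those genes, with a threshold of 0.05, and fold changes on this scale understate the change of low genes. Alternatives were pseudocounts of 0.1 and 0.5, no filter, a minimum of 5 RPKM, median-of-ratios scaling, limma without its options, a replicate block and leaving out each library. The fit was run on simulated data drawn from its own fitted spread, which cannot show faults of that model, and the values are not reported here. Modest changes could go uncalled there, so a gene not called was not shown to be unchanged. Each member past the threshold and each H2A.Z, H2A.X, H3.3 and CENH3 gene is given with its values and test, other members by counts and ranges or with the most abundant named, and each other list by its counts and up to 3 genes of lowest adjusted p. Other genes named outside this rule (HTB3, HTB10, HTR13, HIS4, HTA1, HTA2, HTA12, H1.1 to H1.3, the CAF-1 subunits, PCNA and MCM genes) were named after their values were seen. Members and lists were chosen with earlier results of these data known. Promoters and coding sequences were read with Biopython 1.88 from TAIR10.1 with the RefSeq annotation.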

Additional observations from a re-analysis of the deposited data

How the results depend on the processing

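The number of histone genes called lower was 22, and 0 were higher in every alternative run. It was 22 with pseudocounts of 0.1 or 0.5, 16 without a filter, 23 with a minimum of 5 RPKM, 13 with median-of-ratios scaling, 14 in limma without trend and robust options, and 10 to 22 with 1 library left out, lowest without Col-0 replicate 2. Scaling moved the counts over all genes to 1066 higher and 1113 lower and the median log2 change of the 42 histone genes to -0.20. With 1 library left out these were 389 to 674 higher, 859 to 1790 lower and a median of -0.34 to -0.24. Single genes were refitted for the 42 tested members and the 3 genes of lowest adjusted p in each of 4 other lists. Among these, the sign of 3 that were not called turned: E2FC with scaling (0.00702 against -0.063), and, with 1 library left out, HTA12 (-0.085 to 0.12) and H1.3 (-0.093 to 0.22). Apart from the scaling, whose shift of all genes by 0.07 is given by its construction, the cause was not tested. The libraries share replicate numbers, and the deviations of same-numbered libraries correlated at 0.205, 0.0512 and 0.221. Col-0 replicates 1 and 3 correlated best with the csu6-2 library of their own number, but Col-0 replicate 2 did so with csu6-2 replicate 1 (0.121). Libraries of unlike number correlated at -0.304 to 0.121. As this was mixed and the labels name no pairing, the numbers were not taken to pair the samples, which leaves the question unsettled. With the replicate block 28 histone genes were lower, the same 22 and HTA1, HTA3, HTA5, HTR8, HTR13 and HIS4 (adjusted p = 0.00444 for HIS4 and 0.025 to 0.0492 for the other 5), and 2 replication genes, CYCA3;1 and RNR1. Depth was not given and could only be estimated, so no counting interval is printed.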
